A study of Mus musculus with 4 samples.

Results

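Otx1, Emx1, Emx2, Fezf2, Six3, Lhx2, En1, En2 and Gbx2 encode transcription factors of regional identity in the developing forebrain, midbrain and anterior hindbrain. They are 9 of the 22367 protein-coding genes of the GENCODE vM1 annotation on mm9. They were chosen by name as genes of forebrain and midbrain identity, and every peak near them is accounted for whatever its score. SOX3 binding near them was taken from every peak that overlapped the gene body or the 100 kb to either side of it, called the window of the gene. The chromatin came from neural progenitor (NP) cells made from R1, a mouse embryonic stem cell line, by 4 days of culture as monolayers in N2B27, a serum-free medium, and SOX3 was immunoprecipitated with the goat antibody AF2569. The samples are 3 biological replicates of this condition, and an input DNA sample without antibody served the authors as background. There was no second condition, so sites were compared with one another, between replicates and with all protein-coding genes. Binding was measured, not expression, and whether each of these genes was active in the cells was not tested.

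SOX3 is an HMG-box protein of the SOXB1 group that binds variants of AACAAA and AACAAT in neural progenitors, often beside a POU-domain partner. The anterior neural plate is divided by transcription factors into the telencephalon, the eye field and the region around the midbrain-hindbrain boundary, and each of these territories is first recognised by the homeodomain or zinc finger genes it expresses. Otx1, Emx1, Emx2 and Fezf2 were counted here as telencephalic, Six3 and Lhx2 as eye field genes and En1, En2 and Gbx2 as midbrain-hindbrain genes. Several of them act in more than 1 territory, such as Lhx2 in the cortex and Otx1 in the midbrain, and each was counted once.

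Each peak carries a score made from the p-value that MACS gave it against the input, taken as −log10 and multiplied by 10, so that the calling threshold of 1e-05 becomes 50. Replicates 1, 2 and 3 had 18816, 8096 and 40543 peaks. Library depth is unknown here, for which reason scores were ranked within each list, where a percentile is the share of the list's peaks that score no higher. Where peaks of replicates 1, 2 and 3 all overlapped by 1 bp or more, the shared bases are called a common site, and there were 5537 in the genome. Replicates 2 and 3 resembled each other in detail. In the windows of the 9 genes, replicates 2 and 3 had 15 overlapping pairs of peaks, of which 7 had an identical start and 8 an identical end. No edge was identical in the 11 pairs of replicates 1 and 2 or in the 16 pairs of replicates 1 and 3. In the whole lists the start was identical in 34.5% of pairs of replicates 2 and 3, 0.922% of pairs of replicates 1 and 2 and 1.63% of pairs of replicates 1 and 3. The reason was not tested. Whether the reads of replicates 2 and 3 are independent is therefore in doubt, and a common site, or a region seen in every replicate, may stand for only 2 independent samples. Agreement of replicates 2 and 3 alone is given separately from agreement that includes replicate 1.

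The windows held 96 peaks, and replicates 1, 2 and 3 contributed 38, 15 and 43 of them. At least 1 peak of replicate 1 was present for 8 of the 9 genes and 81.7% of all protein-coding genes, of replicate 2 for 6 of the 9 and 54.2% of all genes, and of replicate 3 for all 9 and 94.7% of all genes. No gene of the 9 was without any peak, as 2.79% of all genes were. When overlapping peaks were joined there were 65 regions, 12 seen in every replicate, 7 in 2 replicates and 46 in 1 replicate. The same shares over all regions of the lists were not computed, so these counts show nothing particular to the windows. Of the 7 regions in 2 replicates, replicates 1 and 3 shared 4, replicates 2 and 3 shared 3, and replicates 1 and 2 shared none. The 46 regions in 1 replicate came from replicate 1 (22) and replicate 3 (24), since none of the 15 peaks of replicate 2 lay apart from those of replicate 3. Such overlap was usual. In the whole lists replicates 2 and 3 had 7815 overlapping pairs, and replicate 2 had 8096 peaks. Common sites numbered 11. Gbx2 had 4, En2 had 3, Fezf2 had 2, and Lhx2 and Six3 had 1 each, whereas Otx1, Emx1, Emx2 and En1 had none. At least 1 common site was therefore present for 5 of the 9 genes, against 42.1% of all protein-coding genes, a share that puts 5 of 9 near the background. With 200 kb to each side it was 5 of 9 against 60.5%, which turns the direction, and the 11 sites fell to 6 with 50 kb and to 5 when the nearest start had to be that of the gene. Among genes whose body is no longer than the 30453 bp of Lhx2, the longest of the 9, the background was 39.9%. At least 2 common sites were present for 3 of the 9 genes and 16.2% of all genes, at least 3 for 2 of the 9 and 7.45% of all genes, and at least 4 for 1 of the 9 and 3.63% of all genes. The mean was 1.22 common sites per window for the 9 genes and 0.799 for all genes. No test was made of these shares, because the genes were chosen with earlier results of these data known.

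**Figure D1:**
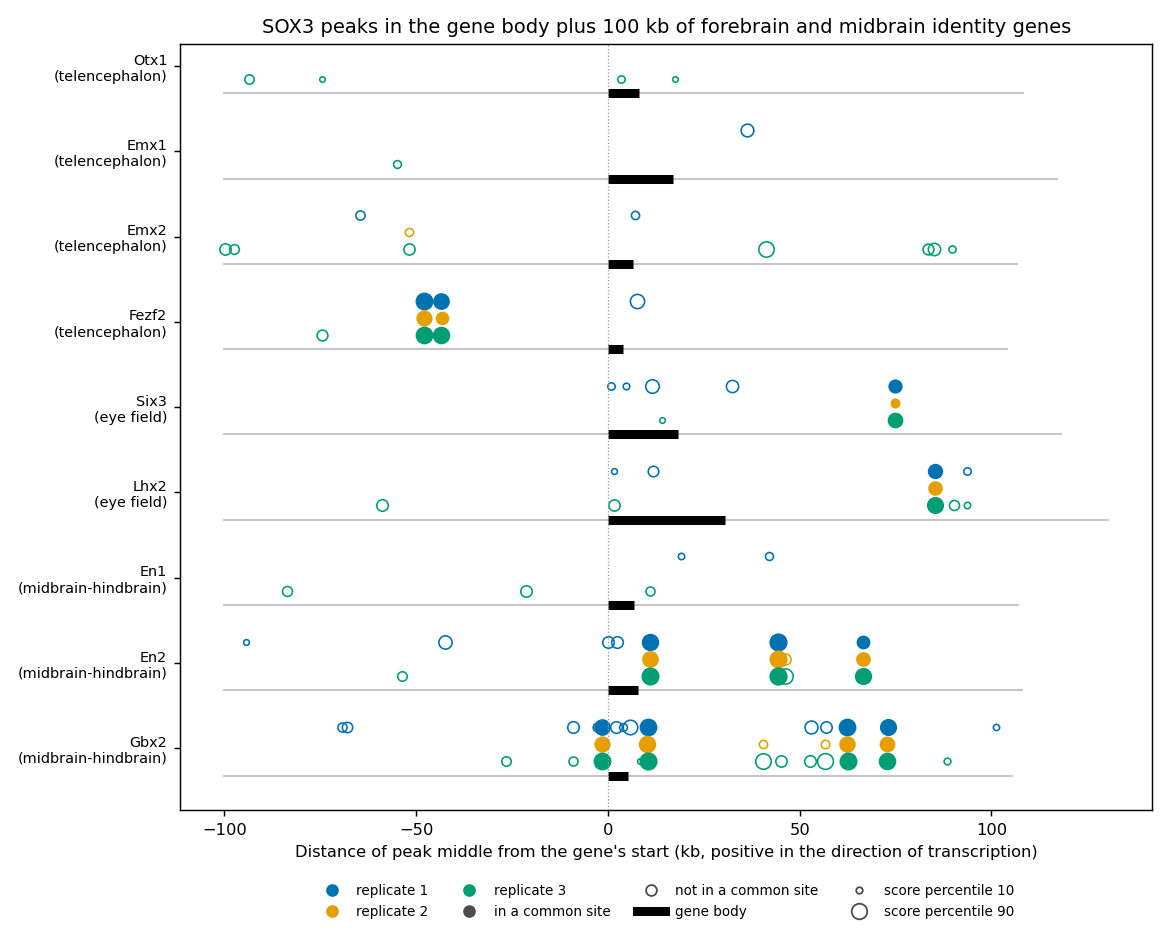
Peaks of each replicate in the windows of the 9 genes. The x axis is the distance in kb of the middle of a peak from the start of the gene, positive in the direction of transcription, each row is a gene, colours are replicates, filled circles are peaks in common sites, and the size of a circle grows with the percentile of its score. Filled circles are present at Fezf2, Six3, Lhx2, En2 and Gbx2, and Otx1, Emx1, Emx2 and En1 have open circles only.

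The reference sequence of 6 of the 11 common sites is printed here because they are the site of each gene with the highest lowest percentile over the replicates, and the En2 site that holds a joined SOX/POU word. All are on the plus strand of mm9. Capitals mark exact matches on either strand to the SOX word AACAAA or AACAAT and to its variant GACAAA or GACAAT (on the minus strand these read as their reverse complements), and in En2 site 3 also the POU octamer, for which ATGCAAAT and ATGCTAAT were searched. Sites longer than 300 bp are shown by the 300 bp around their middle, which leaves out the GACAAA of Gbx2 site 2 at 91819716 to 91819721, and En2 site 2 by the 30 bp around its central SOX word, because it overlaps an exon of Cnpy1.
Fezf2 site 1, chr14:13226076-13226375: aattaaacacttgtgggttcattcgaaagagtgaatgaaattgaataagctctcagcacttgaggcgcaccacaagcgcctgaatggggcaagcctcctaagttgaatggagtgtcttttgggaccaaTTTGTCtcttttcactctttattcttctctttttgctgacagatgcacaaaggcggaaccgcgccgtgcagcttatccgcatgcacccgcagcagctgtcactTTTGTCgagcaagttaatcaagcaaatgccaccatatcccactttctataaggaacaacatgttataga
Six3 site 1, chr17:86087624-86087787: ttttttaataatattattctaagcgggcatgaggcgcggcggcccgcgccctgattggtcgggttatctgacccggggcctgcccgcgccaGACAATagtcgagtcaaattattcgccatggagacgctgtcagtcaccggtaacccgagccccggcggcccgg
Lhx2 site 1, chr2:38280023-38280246: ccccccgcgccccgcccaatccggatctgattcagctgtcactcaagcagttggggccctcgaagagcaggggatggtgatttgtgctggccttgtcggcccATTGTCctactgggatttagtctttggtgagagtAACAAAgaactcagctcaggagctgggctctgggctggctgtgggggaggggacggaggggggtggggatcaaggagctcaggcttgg
En2 site 2, chr5:28536643-28536672: tatccagctcccTTTGTCccctttcacacg
En2 site 3, chr5:28558716-28558947: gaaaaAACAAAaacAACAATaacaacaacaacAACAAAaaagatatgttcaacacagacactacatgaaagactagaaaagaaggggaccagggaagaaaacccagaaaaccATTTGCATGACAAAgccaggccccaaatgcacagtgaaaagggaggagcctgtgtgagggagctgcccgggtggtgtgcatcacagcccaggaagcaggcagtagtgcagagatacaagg
Gbx2 site 2, chr1:91819378-91819677: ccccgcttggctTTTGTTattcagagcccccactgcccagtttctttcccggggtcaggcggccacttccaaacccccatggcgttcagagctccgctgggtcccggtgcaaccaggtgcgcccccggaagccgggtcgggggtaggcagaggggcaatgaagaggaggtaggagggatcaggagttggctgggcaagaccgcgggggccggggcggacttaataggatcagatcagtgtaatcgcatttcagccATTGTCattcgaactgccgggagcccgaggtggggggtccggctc

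Gbx2 encodes a homeodomain factor of the anterior hindbrain that sets the posterior side of the midbrain-hindbrain boundary. Its gene (ENSMUSG00000034486, chromosome 1 from 91824537 to 91829865, minus strand) had the largest number of peaks among the 9, with 14, 6 and 12 in replicates 1, 2 and 3. At least as many were present in 1.2%, 2.12% and 7.86% of all genes. Gbx2 site 1 (91831347 to 91831631) lay 1.62 kb upstream of the start, the only common site within 2000 bp of an annotated start of any of the 9 genes, a position where 4.59% of all genes had a common site. It scored 203, 165 and 301 in replicates 1, 2 and 3, the 85.3rd, 81st and 96.3rd percentiles.

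Gbx2 site 2 (91819278 to 91819776) had the best lowest percentile of the gene, 92.7, and lay 10.3 kb from the start, beyond the 3′ end. It scored 432, 311 and 532 in replicates 1, 2 and 3, and its ranks in the lists were 854, 589 and 657. Sites 3 (91767170 to 91767626) and 4 (91756911 to 91757215) lay 62.5 and 72.8 kb from the start, in the same intron of Agap1 (91739819 to 91784080), a gene for a GTPase-activating protein of Arf. Site 3 scored 434, 186 and 343 in replicates 1, 2 and 3. The scores of site 4 were 255, 146 and 198 in the same order. Every Gbx2 site was at or above the 77.3rd percentile in each replicate.

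Another region of Gbx2 (91772985 to 91773502), in the same intron, held a peak of each replicate without being a common site, since the peaks of replicates 1 and 2 were 14 bp apart and both overlapped that of replicate 3. It scored 81.4, 60.8 and 168. Regions of 2 replicates numbered 3 at Gbx2, of which 2 were found in replicates 1 and 3 and 1 in replicates 2 and 3. The other 11 regions were each of 1 replicate, and the highest of them scored 167 in replicate 1 (80.8th percentile), 5.82 kb from the start and 266 bp beyond the 3′ end. Without replicate 2, the number of common sites of Gbx2 was 7. The nearest annotated start to sites 2, 3 and 4 belonged to D130058E05Rik, a 1629 bp gene model on the other strand inside Gbx2, so by the nearest start Gbx2 kept 1 of its 4 sites.

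En2 encodes an Engrailed homeodomain protein of the midbrain and cerebellum. It lies on the plus strand of chromosome 5 from 28492236 to 28500152 (ENSMUSG00000039095). The common site with the highest score in each replicate over all 9 genes, En2 site 2 (28536478 to 28536836), lay in its window, 44.4 kb downstream of the start. It scored 931 in replicate 1, 552 in replicate 2 and 876 in replicate 3, with ranks of 196, 184 and 263, and its lowest percentile of 97.7 was 174th among the 5537 common sites. The middle of this site was 51 bp from an annotated start of Cnpy1 (ENSMUSG00000044681, chromosome 5 from 28527359 to 28572332, minus strand), whose zebrafish counterpart acts in FGF signalling at the midbrain-hindbrain boundary. It contained 32 CpG dinucleotides in 359 bp, the largest count of the 11 sites, although Six3 site 1 had more per base (18 in 164 bp).

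En2 site 1 (28503099 to 28503427) lay in the intergenic sequence 11027 bp from the start and 2947 bp beyond the 3′ end. Its scores were 315, 197 and 421, the 92.3rd, 85.4th and 97.7th percentiles. En2 site 3 (28558716 to 28558947) lay 66.6 kb from the start in an intron of Cnpy1 that runs from 28536904 to 28564257. It had lower scores of 93.4, 115 and 157, and replicate 1 had the lowest score and percentile here, whereas replicate 2 had them at the other 10 common sites. In addition, a region at 46.1 kb was found in replicates 2 and 3, with scores of 83.7 and 128 (51.3rd and 87.6th percentiles). A peak across the start of En2 itself, with its middle 53 bp upstream, was called in replicate 1 alone, with a score of 82.4 (53.6th percentile). By the nearest start, 1 of the 3 common sites belonged to En2 and 2 to Cnpy1.

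En1 encodes the other Engrailed protein and is needed for the midbrain and cerebellum to form. It lies on the plus strand of chromosome 1 from 122498995 to 122505873 (ENSMUSG00000058665). In contrast to En2, its window held no common site and no peak of replicate 2. Its 5 peaks were each found in 1 replicate, with scores of 52.8 and 57.1 in replicate 1 and 59.6, 65.3 and 56.6 in replicate 3. Of these 5 peaks, 4 were below the 50th percentile of their list, as about 50% of any list is by definition. The closest was 11.1 kb from the start, and the closest common site on the chromosome was 463 kb from the gene.

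Fezf2 encodes a zinc finger protein of forebrain progenitors that later specifies deep-layer projection neurons of the cortex. The gene (ENSMUSG00000021743, chromosome 14 from 13174406 to 13178379, minus strand) was the only telencephalic gene of the 4 with common sites. Both lay upstream, in 1 intron of Cadps (13209224 to 13244067), a gene for a protein of vesicle priming, and their nearest annotated start was that of Fezf2. Site 1 (13226074 to 13226377), 47.8 kb upstream, scored 489 in replicate 1, 164 in replicate 2 and 250 in replicate 3. Site 2 (13221650 to 13221800), 43.3 kb upstream, scored 209, 93.1 and 196. The percentiles of site 1 were 96.3, 80.7 and 95.2 and those of site 2 were 85.8, 57.5 and 93.2, so replicate 2 was the lowest at both. The sites were 4273 bp apart. A peak 7.68 kb from the start, beyond the 3′ end, was called in replicate 1 alone, with a score of 151 (77.9th percentile).

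Otx1, Emx1 and Emx2, the other telencephalic genes, had 16 peaks between them and no common site. Otx1, a homeodomain gene of the forebrain and midbrain (ENSMUSG00000005917, chromosome 11 from 21894767 to 21902900, minus strand), had 4 peaks of replicate 3 and none of replicates 1 and 2. Their scores ran from 50.1 to 57.7, all at or below the 35.1st percentile, and the closest lay in an intron of Otx1, 3.55 kb from the start. Emx1, which marks progenitors of the dorsal telencephalon (ENSMUSG00000033726, chromosome 6 from 85137432 to 85154456, plus strand), had 1 peak of replicate 1 and 1 of replicate 3, at different places. The first lay 36.4 kb from the start in an intron of Sfxn5 and scored 104 (64.5th percentile). The other scored 53.8, and 54.2% of its 50-base sequences occur more than once in the genome, which was the case for more than 50% of the sequences of no other peak among the 96.

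Emx2, which controls the size of cortical areas (ENSMUSG00000043969, chromosome 19 from 59533180 to 59539847, plus strand), had 10 peaks, of which replicate 1 gave 2, replicate 2 gave 1 and replicate 3 gave 7. A region 51.8 kb upstream was found in replicates 2 and 3, with scores of 59.3 and 64.2 (24.5th and 51st percentiles), and without replicate 1 it would be the only common site of Emx2. The highest score was 131 (88.1st percentile), for a peak of replicate 3 alone, 41.3 kb downstream of the start. The closest peak, 7.12 kb from the start and 378 bp beyond the 3′ end, was called in replicate 1 alone and scored 57.7. The closest common sites were 268 kb from Otx1, 890 kb from Emx1 and 325 kb from Emx2.

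Six3 is required for the anterior forebrain and the eye, where it represses Wnt signalling. Its gene (ENSMUSG00000038805, chromosome 17 from 86012948 to 86031153, plus strand) had 1 common site, Six3 site 1 (86087624 to 86087787), which lay 74.8 kb from its start and 111.5 bp from that of Six2, a related gene known for its role in kidney progenitors. It scored 102, 59.9 and 90.6 in replicates 1, 2 and 3, the 63.6th, 26.2nd and 77th percentiles, and its lowest percentile was the lowest of the 11 sites. Inside Six3, 3 peaks were called in replicate 1 alone and 1 in replicate 3 alone, none of them at the same place. The strongest of them scored 126 in replicate 1 (71.9th percentile) at 11.5 kb from the start, in an exon.

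Lhx2, a LIM-homeodomain gene of the eye field and the cortex (ENSMUSG00000000247, chromosome 2 from 38194801 to 38225253, plus strand), also had 1 common site. Lhx2 site 1 (38280023 to 38280246) was intergenic, 85.3 kb from the start and 54770 bp beyond the 3′ end. It scored 131, 112 and 141 in replicates 1, 2 and 3, at the 73.5th, 66.9th and 89.3rd percentiles. Replicates 1 and 3 shared 2 further regions. A region 1.6 kb downstream of the start, 210.5 bp from an annotated start of the gene, had scores of 51.2 and 64.8 (3.54th and 52.2nd percentiles). The other, 93.7 kb from the start, had scores of 54.96 and 51.4, both near the threshold. With these, the number of common sites of Lhx2 without replicate 2 was 3.

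**Figure D2:**
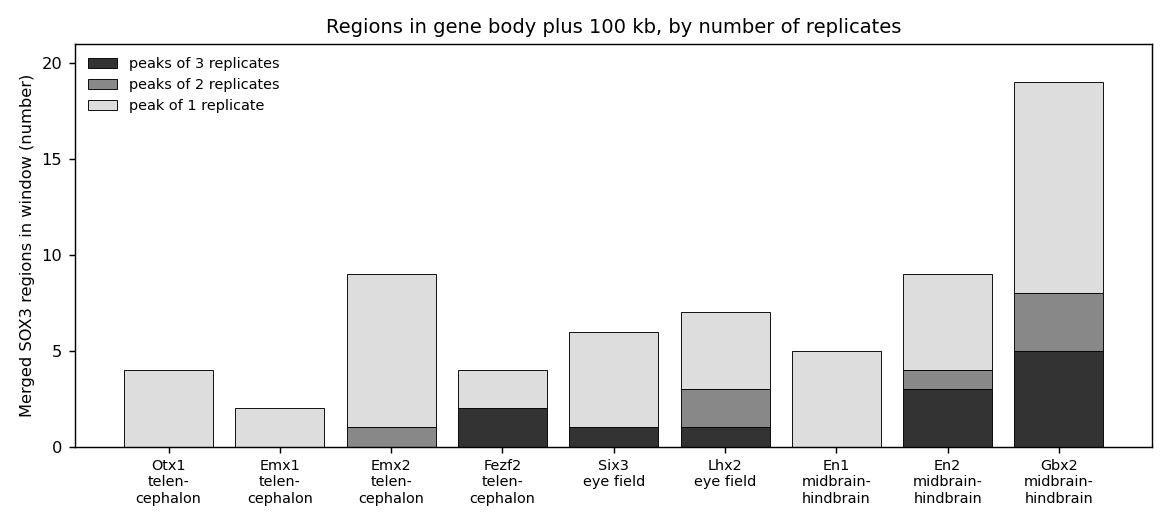
Merged regions in the window of each gene, by the number of replicates with a peak in them. The x axis gives the genes with their brain region and the y axis the number of regions, and shades stand for 3, 2 and 1 replicates. Gbx2 has the most regions (19), and those of Otx1, Emx1 and En1 are of 1 replicate only.

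By brain region, the 3 midbrain-hindbrain windows held 53 peaks and 7 common sites, the 4 telencephalic windows 24 peaks and 2 common sites, and the 2 eye field windows 19 peaks and 2 common sites. All 7 midbrain-hindbrain sites were in the windows of En2 and Gbx2, and 5 of them lay nearest to the start of Cnpy1 or D130058E05Rik. By the nearest start the midbrain-hindbrain genes had 2 sites, the telencephalic genes 2 and the eye field genes 1, so the larger number for the midbrain-hindbrain genes was not present by that rule. D130058E05Rik lies inside Gbx2, so the rule took Gbx2 sites 2, 3 and 4 from Gbx2 by a gene model within it. The median score of the 7 midbrain-hindbrain sites was 315 in replicate 1, 186 in replicate 2 and 343 in replicate 3, and the ranges were 93.4 to 931, 115 to 552 and 157 to 876. At the 2 telencephalic sites the medians were 349, 128 and 223, and at the 2 eye field sites 117, 85.9 and 116. By percentile within each list, the median site of the midbrain-hindbrain genes was at 92.3, 84 and 96.9 in replicates 1, 2 and 3, that of the telencephalic genes at 91, 69.1 and 94.2, and that of the eye field genes at 68.5, 46.6 and 83.2. Among common sites within 100 kb, the order of the 3 medians by percentile was the same in each list. By score the telencephalic median of these sites was the highest in replicate 1. Over all peaks of the windows the order differed between lists. In replicate 1 the median percentile was 71.2 for telencephalic, 54.8 for midbrain-hindbrain and 45.2 for eye field peaks. In replicates 2 and 3 the midbrain-hindbrain median was the highest, at 79.2 and 71. The telencephalic medians were then 57.5 and 47.4, and the eye field median was 46.5 in each. The percentiles of single midbrain-hindbrain and telencephalic sites overlapped in every replicate, and those of midbrain-hindbrain and eye field sites overlapped in replicate 1 and not in replicates 2 and 3. With 200 kb to each side the eye field had 6 sites, for which the medians were not computed. Nor were they computed by the nearest start, so the order applies to the common sites of the 100 kb windows only. With 2 sites in each of 2 regions, and with sites of 1 gene that are not independent, no test was made.

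**Figure D3:**
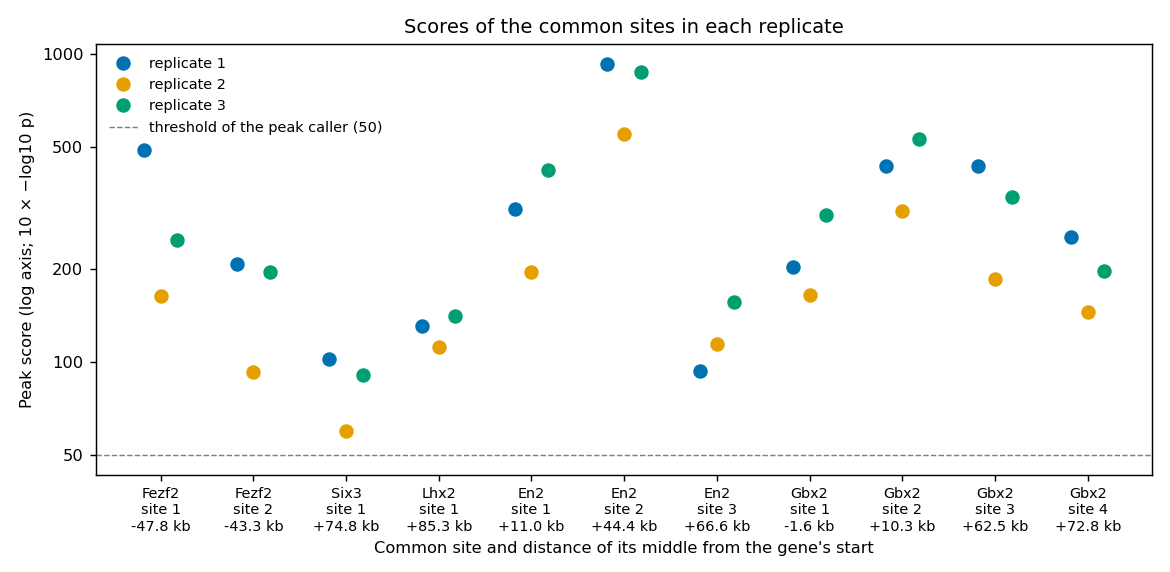
Scores of the 11 common sites. The x axis gives the site and the distance of its middle from the start of the gene in kb, the y axis the score on a log axis, colours are replicates and the dashed line is the calling threshold of 50. En2 site 2 has the highest score in each replicate (931, 552 and 876), and Six3 site 1 has the lowest in replicates 2 and 3 (59.9 and 90.6).

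Common sites near these genes had a median score of 255 in replicate 1, 164 in replicate 2 and 250 in replicate 3, whereas over all common sites the medians were 179, 108 and 189. Of the 11 sites, 7 were in the windows of En2 and Gbx2, so the medians rest largely on those genes. Midbrain-hindbrain and telencephalic medians were above those over all common sites in each replicate. The eye field medians of 117, 85.9 and 116 were below them. The 63 peaks of the windows outside common sites scored from 50.1 to 168, and 38 of them were below the 50th percentile of their list. About 50% of each list is below it by definition, and the share for all peaks outside common sites was not computed. Of the 11 common sites, 5 were intronic, 3 intergenic and 3 within 2000 bp of an annotated start. The introns were those of Cadps, Cnpy1 and Agap1, and no common site lay in the body of any of the 9 genes, where 8.37% of all genes had 1. Over all common sites, 29.8% were intronic, 50.6% intergenic and 18.5% within 2000 bp of a start. The sites were 151 to 499 bp wide, with a median of 304 bp, and their GC content ran from 41.8 to 61.9%, with a median of 51.5% against 49.6% for all common sites.

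The SOX words were read in the reference sequence of the 11 sites, on both strands. GACAAA or GACAAT was present in 9 of 11 sites, or 81.8% (95% Wilson confidence interval 52.3 to 94.9%), in 4 of 22 equally wide windows 2000 bp away on either side (18.2%, 7.31 to 38.5%), and in 38.5% of the 5536 common sites searched (37.3 to 39.8%). In windows of 200 bp around the middle, where width plays no part, it was present in 8 of 11 sites (72.7%, 43.4 to 90.3%) and in 34% of all common sites (32.7 to 35.2%). AACAAA or AACAAT was present in 6 of 11 sites (54.5%, 28 to 78.7%), in 8 of the 22 flanking windows (36.4%, 19.7 to 57%) and in 53% of all common sites. The share for GACAAA or GACAAT was above that over all common sites, and the share for AACAAA or AACAAT was close to it. The words were chosen with earlier results of these data known. The 11 sites were not matched by score to all common sites. The intervals cover counting error only, and sites of 1 gene are not independent, with 7 of the 11 at En2 and Gbx2. The difference cannot be told from chance here, and no test was made.

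Words of both kinds were present in 5 sites, Lhx2 site 1, En2 site 3 and Gbx2 sites 1, 2 and 3, and in these a GACAAA or GACAAT lay closer to the middle than any AACAAA or AACAAT. Another 4 sites held GACAAA or GACAAT alone. At En2 site 2, GACAAA stood 0.5 bp from the middle on the minus strand and again 43.5 bp away on the plus strand. Lhx2 site 1 had GACAAT 7 bp from the middle and AACAAA 27 bp from it, Six3 site 1 had GACAAT at 12 bp, and Gbx2 site 1 had GACAAA at 12.5 bp and AACAAA at 24.5 bp. At Fezf2, GACAAA lay 19 bp from the middle of site 1 and 22.5 bp from the middle of site 2. En2 site 1, whose lowest percentile was 85.4, held neither word, and Gbx2 site 4 held AACAAA without GACAAA or GACAAT.

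En2 site 3 was the only site of the 11 with the POU octamer and with the joined SOX/POU word, which were present in 9.84% and 6.47% of all common sites. ATGCAAAT on the minus strand, from 28558828 to 28558835, was centred on the middle of the site, and GACAAA on the plus strand followed at once, from 28558836 to 28558841. The joined word, on the minus strand from 28558829 to 28558841, overlaps both, so these matches are not independent of each other. The same site held AACAAA and AACAAT in a run of CAA repeats at its left end, 81 to 108 bp from the middle. The homeodomain word TAATTA was present in none of the 11 sites, in 1 of the 22 flanking windows and in 9.12% of all common sites. With 11 sites, a share of up to 25.9% lies within the Wilson interval of a count of 0.

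**Figure D4:**
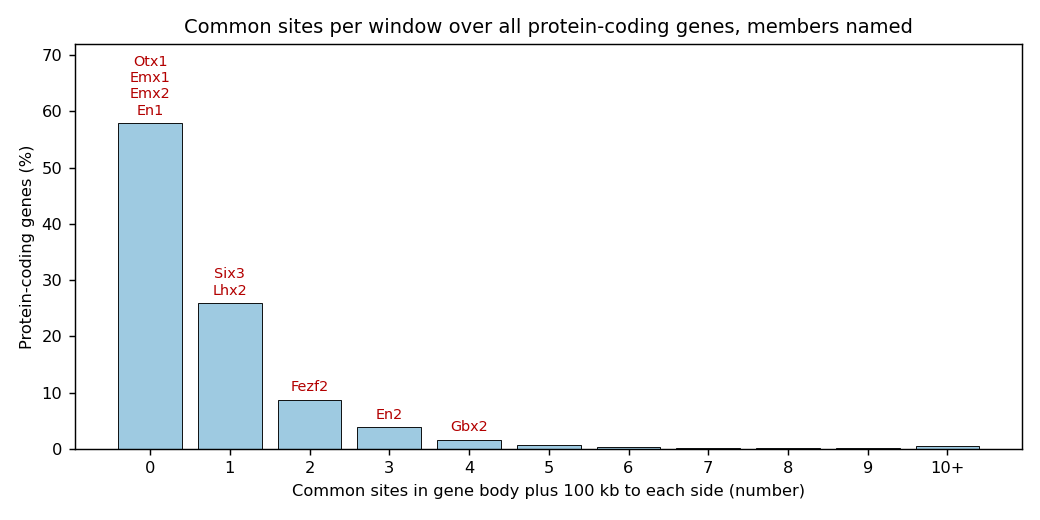
Number of common sites in the window of each protein-coding gene. The x axis is the number of common sites, the y axis the percent of the 22367 genes, and the names of the 9 genes stand above the bar of their own number. Gbx2 stands at 4 and En2 at 3 common sites, and 57.9% of all genes have none, as Otx1, Emx1, Emx2 and En1 do.

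A further 19 genes of the same territories were counted by the same window. At least 1 common site was present for 13 of them (68.4%), against 42.1% of all genes, and no test was made. The genes were chosen with earlier results known and are part of a longer list, so 68.4% is the share of a part. It was not recomputed under other settings. Of 8 telencephalic genes, 3 had a site: Pax6 with 4, and Sp8 and Gsx2 with 2 each. Nr2f1, Nr2f2, Dmrta2, Dlx2 and Tbr1 had none. All 5 eye field genes had a site, with 4 at Hesx1, 2 at Six6 and 1 each at Rax, Vax1 and Vax2. Of the 6 midbrain-hindbrain genes, 5 had a site, with 4 at Pax2, 3 at Otx2, 2 at Fgf8 and 1 each at Wnt1 and Lmx1b, whereas Pax5 had none. Gene length differed among them, from 1968 bp for Hesx1 to 180302 bp for Pax5, and longer genes have wider windows.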

How the data were processed

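NP cells were profiled by SOX3 ChIP-seq in 3 replicates. The authors aligned 50 bp reads to mm9 with Bowtie 1.0.0 and used MACS to find peaks in each replicate against the input, keeping p-values up to 1e-05. The deposited score is −log10 of that p-value multiplied by 10, and is not normalized between replicates. Library depth is unknown from the lists. Gene models were those of GENCODE vM1 (chromosomes 1 to 19, X and Y) on NCBIM37, the same assembly as mm9. Every peak ended within the length of its chromosome there. Positions count from 1. Starts, exons and introns were those of protein-coding transcripts, and distances from a start run from the 5′ end of the gene body to the middle of a peak or site. Distances from the gene, its body or its 3′ end run from the nearer edge of the body to the nearer edge of the peak or site, as do those to common sites outside the windows. Flanking windows were the sites shifted by 2000 bp. The repetition of each peak was read from its 50-base sequences in the whole reference.

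The 9 genes, the further 19 genes, the words and the alternatives were chosen with earlier results of these data known. The list of further genes was longer when chosen, and the rest of it is not reported here, so its share is that of a part of the list. All 9 genes are named and every common site is given. Sites were printed by the rule stated with them. No p-value was computed, because the genes were chosen with results known and sites of 1 gene are not independent. The input reads were not analysed here. The scripts were tested on simulated data, where all 1000 common sites and all 10 words that had been planted were recovered. They ran in Python 3.11.15 with matplotlib 3.10.9, pysam 0.24.0, numba 0.67.0, scipy 1.17.1 and numpy 2.4.6.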

Additional observations from a re-analysis of the deposited data

How the results depend on the processing

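Of 105 values recomputed under the alternatives, other than those of single genes, 80 stayed within 1.5 times the reported count or within its confidence interval. Some of them could hardly move. Leaving out peaks made mostly of repeated 50-base sequences could change no count, because the only such peak, at Emx1, was in no common site. Word shares were judged against wide intervals, such as 1.62 to 37.7% for the POU octamer. The 80 are therefore no measure of robustness. The 11 common sites became 6 with 50 kb to each side, when 3 of the genes had a site and none more than 2, and 5 when the nearest start had to be that of the gene, when none had more than 2. With a p-value of 1e-10 or less required in each replicate, 8 of the 11 sites were left and the telencephalon had 1. In the eye field the number was 1 with that p-value, 1 with equal numbers of peaks, 0 with 50 kb, 6 with 200 kb and 1 by the nearest start. The midbrain-hindbrain number was 4 with 50 kb and 2 by the nearest start. Against 5 of the 9 genes and 42.1% of all genes as reported, a site was present for 4 of 9 and 23.5% with the stricter p-value, 4 of 9 and 33.1% with equal numbers of peaks, 5 of 9 and 39.7% with a reciprocal overlap of 50%, 3 of 9 and 28.7% with 50 kb, and 5 of 9 and 60.5% with 200 kb, so how the 9 genes stood to the background moved with the setting. Leaving out each replicate gave 5 to 6 of the 9 genes and 42.9 to 55% of all genes, 11 to 16 sites in all, 2 to 4 sites in the eye field and 4 to 7 sites at the gene with the most. The share of sites with the POU octamer and with the joined word was 0% with the stricter p-value, because En2 site 3 was lost. A site of 3 replicates cannot be lost by leaving 1 out, so those values can only add sites. With midpoints within 300 bp 1 site was added. The lists give no depth, and what sets their unequal numbers of peaks was not tested, so a gene without a site is only a gene with none called in these lists. No paired analysis was possible because the replicates belong to 1 condition.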

Other observations

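Common sites just beyond the windows of Six3 and Lhx2 scored higher than the sites inside them. The closest to Six3 outside the window (chromosome 17 from 85886294 to 85886590) lay 126 kb upstream of the gene, its nearest annotated start was that of Six3, and its scores were 282, 145 and 277 in replicates 1, 2 and 3. The closest to Lhx2 (chromosome 2 from 38076619 to 38077043) lay 118 kb upstream, nearest to Dennd1a, with scores of 304, 206 and 307. For the other genes with common sites, the farthest site inside lay 47695 bp from the body of Fezf2, 58564 bp from En2 and 67322 bp from Gbx2, and the closest outside lay 374, 1410 and 224 kb away. The site closest to Emx2, 325 kb away, was nearest to Vax1.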
